A study of Mus musculus with 28 samples.

Results

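The ABC transporter genes described here were the 38 genes, 1 row each, whose symbol starts with Abca, Abcb, Abcc, Abcd, Abce, Abcf or Abcg followed by a number, among 43143 rows in all. They comprised 11 Abca, 9 Abcb, 6 Abcc, 4 Abcd, 1 Abce, 3 Abcf and 4 Abcg genes. Of the 38 rows 14 were rows of genes and the others rows of single transcripts. These were 10 with a retained intron, 6 processed transcripts, 5 marked for nonsense-mediated decay and 3 protein-coding transcripts. Counts and medians over members therefore mix gene totals with single transcripts. RNA sequencing was performed on the 3LL line, derived from mouse Lewis lung carcinoma, in culture and as tumors, with 4 libraries in each of 7 groups. The cultured groups were wild-type (WT) cells, KEAP1-KO cells in which Keap1 was disrupted by CRISPR-Cas9, and DKO cells, in which Nrf2 (Nfe2l2) was disrupted in addition in the KEAP1-KO cells. Both edited lines were grown from a single colony, so genotype and clone cannot be told apart. Tumors grew under the skin of male albino C57BL/6 hosts, aged 6 weeks, and were taken at day 10. In Experiment A each mouse bore WT cells in the left flank and KEAP1-KO cells in the right flank, and in Experiment B each bore KEAP1-KO cells on the left and DKO cells on the right. Genotype and flank therefore cannot be told apart within an experiment, and WT and DKO tumors also differ in experiment. The host mice carried an intact immune system, and a tumor library holds RNA of host cells beside that of cancer cells.

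ABC proteins use ATP to move substrates across membranes. Abca proteins carry mostly lipids, Abcb holds the multidrug pump P-glycoprotein together with bile and organelle transporters, Abcc holds the multidrug resistance proteins (MRPs) that export glutathione and glucuronide conjugates, Abcd imports acyl-CoA into peroxisomes, and Abcg carries sterols and drugs. Abce and Abcf proteins have the ATP-binding domains without a membrane domain and act with ribosomes. KEAP1 is the adaptor that marks the transcription factor NRF2 for degradation, and NRF2 is known to switch on detoxification genes, including enzymes that conjugate toxins and MRPs that export the conjugates. By what each protein or its relatives are known to carry or do, the 38 genes were put into classes. These were 9 drug and conjugate exporters, 18 lipid transporters, 6 organelle transporters, 4 soluble proteins and 1 channel subunit, so some Abcb and Abcg genes stand with the lipid transporters. Abcg3 was put with the exporters only as a relative of the drug exporter Abcg2.

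Over the deposited rows libraries held 4222376 to 7524281 reads. These totals were recovered from the deposited values and leave out reads outside those rows. Values were log2(normalised count + 4), so 2.0 stands for no read, and a difference on this scale understates the change of a gene near 2. Keap1 itself was lower in the edited libraries, with a mean of 9.45 in WT cells, 7.59 in KEAP1-KO cells and 7.35 in DKO cells, and 8.88, 7.45, 7.46 and 7.37 in the WT, KEAP1-KO (A), KEAP1-KO (B) and DKO tumors. The Nfe2l2 row, a processed transcript, did not differ by an adjusted p under 0.05 in the tests of DKO against KEAP1-KO, whereas the NRF2 target Nqo1 fell by 5.68 in cells and by 6.30 in tumors. The keratin Krt8, an epithelial gene, was present in all 28 libraries at 1440 to 5130 normalised counts, and albumin (Alb) ranged from 0.00 to 6.76. These 2 genes were chosen after their values were seen, to check the labels, 1 of which names liver as the source of RNA. Differences were tested with limma across all rows that reached a normalised count of 5 in at least 4 libraries, and a member was called when its Benjamini-Hochberg adjusted p was under 0.05.

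The first question was which ABC genes followed KEAP1 loss, and whether drug exporters and lipid transporters differed. In Experiment A tumors, 13 of the 32 tested members were called between KEAP1-KO and WT, 7 higher and 6 lower, beside 13.1% of all rows tested (5.61% higher and 7.49% lower). Adding NRF2 loss, 6 of 32 members were called between DKO and KEAP1-KO tumors in Experiment B, 1 higher and 5 lower, beside 8.86% of all rows (4.22% higher and 4.64% lower). In cultured cells 23 members could be tested. Between KEAP1-KO and WT cells 8 were called, 6 higher and 2 lower, beside 15.5% of all rows (8.13% higher and 7.33% lower), and between DKO and KEAP1-KO cells 6 were called, 1 higher and 5 lower, beside 8.83% (3.98% higher and 4.85% lower).

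Neither class moved in 1 direction with KEAP1 loss in tumors. Of 8 tested drug and conjugate exporters in Experiment A, 2 were higher (Abcb1a and Abcc4) and 2 lower (Abcc3 and Abcg3), with a median difference of 0.65. Of 14 tested lipid transporters 2 were higher (Abca8b and Abcb11) and 4 lower (among them Abca1, Abca7 and Abca9), with a median of -0.26. The median of all rows tested was -0.03. Counted by family, 6 of 18 tested Abcb, Abcc and Abcg genes were called, 4 higher and 2 lower, with a median of 0.50. In Experiment B the medians were -0.46 for the exporters and 0.25 for the lipid transporters, beside 0.00 for all rows, with 2 of 8 exporters lower, and 3 lipid transporters lower and 1 higher. In cells 1 of 3 tested exporters was higher and none lower with KEAP1 loss (median 0.95, 3 of 3 positive), and 1 of 3 was lower with NRF2 loss (median -1.06). Of 11 tested lipid transporters 3 were higher and 2 lower with KEAP1 loss in cells (median 0.22), and 4 were lower with NRF2 loss (median -0.32). None of the 6 organelle transporters was called in any of these 4 comparisons by limma, and the counts with an unadjusted p under 0.05 were 2, 1, 0 and 1 in the order given above. These class counts use only the row with the symbol. With all rows of a gene added up, as described below, further members were called in some or all of these comparisons. They included the organelle transporter Abcb6, the exporters Abcc1 and Abcb1b, and the soluble protein Abcf3.

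**Figure D1:**
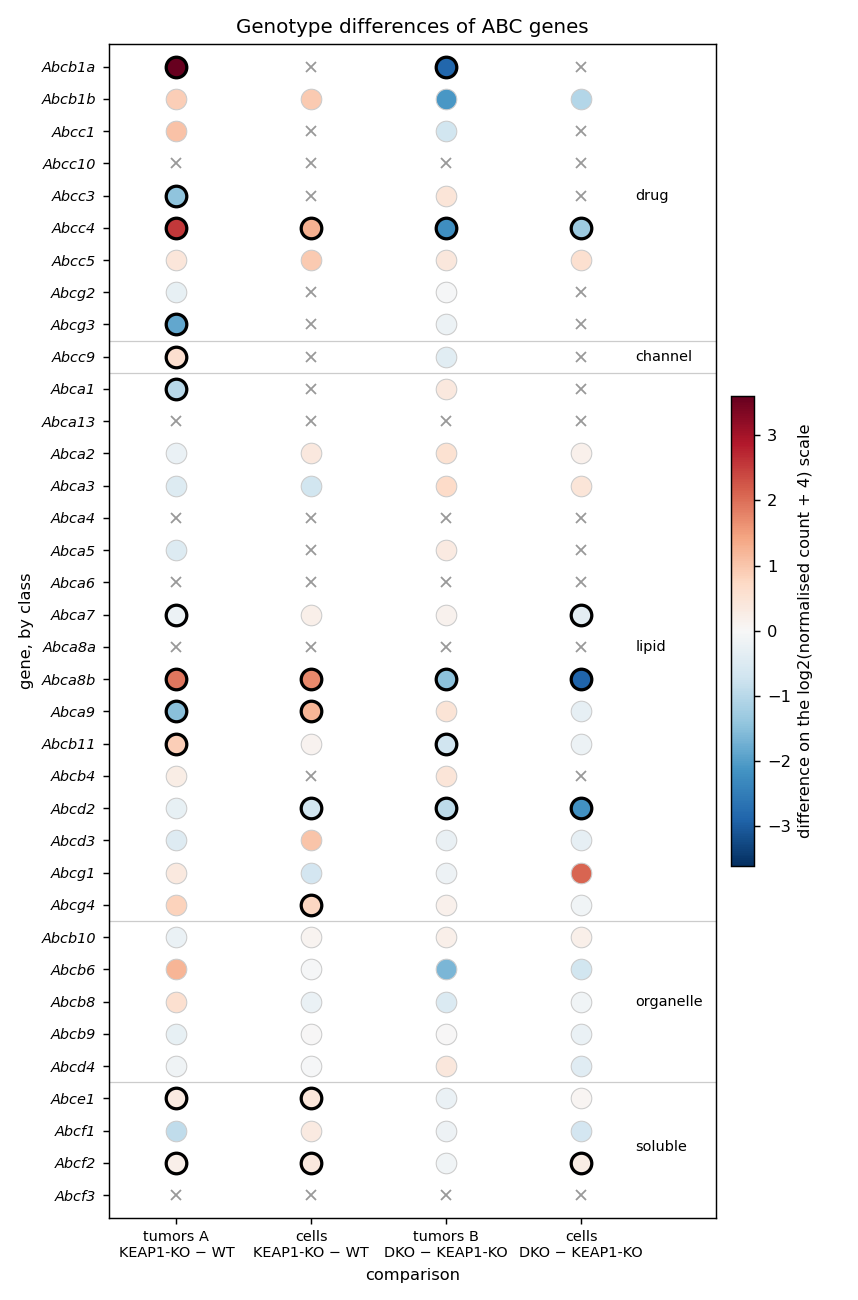
Differences of the ABC genes reported here (rows, by class) in 4 comparisons (columns), coloured by the difference on the log2(normalised count + 4) scale. Black rings mark an adjusted p under 0.05 in limma and crosses mark genes under the low-value filter. Abcc4 and Abca8b are ringed in all 4 columns, red for KEAP1-KO minus WT and blue for DKO minus KEAP1-KO.

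Abcc4 and Abca8b were the members called in all 4 comparisons with the same pattern, higher without KEAP1 and lower once NRF2 was lost as well. Abcc4 (row ENSMUST00000226703, a processed transcript) encodes MRP4, an exporter of cyclic nucleotides, prostaglandins and conjugates. Its values were 8.36, 8.29, 8.20 and 8.35 in the WT tumors and 11.03, 10.71, 10.40 and 11.29 in the Experiment A KEAP1-KO tumors. In Experiment B they were 9.52, 10.32, 10.55 and 10.09 in KEAP1-KO tumors and 7.75, 7.88, 7.81 and 8.11 in DKO tumors. The groups did not overlap in either experiment. The mean normalised count was 312 in WT tumors, 1900 and 1150 in the KEAP1-KO tumors, and 234 in DKO tumors. The difference was 2.55 (SE 0.20, n = 4 and 4, adjusted p = 2.8e-07) for KEAP1 loss and -2.23 (SE 0.20, adjusted p = 2.4e-06) for NRF2 loss.

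In culture Abcc4 stood at 7.56, 8.17, 8.07 and 8.33 in WT cells, at 9.42, 9.22, 9.35 and 9.29 in KEAP1-KO cells and at 8.12, 7.87, 8.14 and 7.95 in DKO cells. All KEAP1-KO cell libraries were above all others in culture, and WT and DKO cells overlapped. The difference was 1.29 (SE 0.14, adjusted p = 2.9e-05) between KEAP1-KO and WT cells and -1.30 (SE 0.14, adjusted p = 4.4e-05) between DKO and KEAP1-KO cells, while DKO and WT cells differed by -0.02 (95% interval -0.31 to 0.28).

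The Abcc4 row begins, in the GENCODE vM21 annotation, at the second of the starts that RefSeq gives the gene. NRF2 with a small MAF partner is known to bind the antioxidant response element, whose core is TGACNNNGC, and this core was searched on both strands in RefSeq promoter windows (build GRCm38.p6, 250 bases before to 50 after each start). It was found in 12.4% of all 32851 windows. Of the 38 genes 28 had a window, and the core occurred in 4 of them, namely Abcc4, Abcb1a, Abca8b and Abcc10. Counted by windows, as for the share over all windows, the core was in 6 of the 34 windows of these 28 genes. The stretches of Abcc4, Abcb1a and Abca8b, which were called in both tumor comparisons, are shown, 5′ to 3′ on the strand of the gene, with the match in capitals. Those of Abcc10, with matches at positions -203 and 12, are not shown. Its row was under the low-value filter in the tumor and cell fits and was called nowhere. A match is a description of letters, not of a bound site. For Abcc4 the 100 bases before each start are given, at chr14:118676932-118677031 and chr14:118706220-118706319 on the minus strand, with the match starting at position -23 and -25 from the start. The second match reads on the opposite strand.
Abcc4, start of the row: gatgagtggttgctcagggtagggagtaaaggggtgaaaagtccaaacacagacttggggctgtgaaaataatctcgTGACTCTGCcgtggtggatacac
Abcc4, other start: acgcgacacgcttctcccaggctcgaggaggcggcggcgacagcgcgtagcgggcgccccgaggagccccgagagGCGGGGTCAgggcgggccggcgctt
Abcb1a, chr5:8567107-8567136, plus strand: ctctttgtccGCGGAGTCAgacagaacaag
Abca8b, chr11:109995815-109995844, minus strand: gagcagccatGCGCGGTCAcgtgtccgtgg
The Abcb1a and Abca8b matches lie after the start, at positions 27 and 12 counted with the start base as 1, and read on the opposite strand. The Abcb1a row itself begins 152728 bases downstream of that RefSeq start. Windows of Abca6, Abcb8, Abcc1, Abcc3, Abcd2, Abcd4, Abcg1 and Abcg4, among others, were not used here.

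Abcb1a (row ENSMUST00000126846, a transcript with a retained intron) encodes P-glycoprotein, the multidrug pump. It was listed at 2.0 in all 4 WT tumors and stood at 5.98, 5.68, 5.45 and 5.32 in the Experiment A KEAP1-KO tumors, a mean normalised count of 45.5. Against the floor of 3 reads per library (2.71 normalised counts) this row was at least 16.8-fold higher. The fitted difference was 3.61 (SE 0.52, adjusted p = 0.00015). In Experiment B the KEAP1-KO tumors stood at 5.52, 5.30, 6.21 and 5.44 and the DKO tumors at 2.0, 5.04, 2.0 and 2.0, a difference of -2.86 (SE 0.52, adjusted p = 0.00196). Replicate 2 of the DKO tumors thus stood far above the other 3 and just under the KEAP1-KO tumors. A further Abcb1a row, without a symbol, was called in neither tumor comparison (0.72 in Experiment A and -0.70 in Experiment B). With both rows added up, the WT tumors stood at 2.0, 2.31, 2.75 and 2.71 and the Experiment A KEAP1-KO tumors at 6.05, 5.72, 5.65 and 5.69.

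In culture Abcb1a was near the floor in every group. It was at 0 reads in 3 of 4 WT cell, 3 of 4 KEAP1-KO cell and 2 of 4 DKO cell libraries, and the highest value was 3.39, so it could not be tested there. In the tumor fit it passed the low-value filter through 9 libraries, all of them KEAP1-KO tumors or that 1 DKO tumor. With the pseudocount set to 0.4 the tumor differences became 6.82 and -5.28. Abcb1a and Abcb1b are close copies, and how reads were divided between them was decided in the authors' quantification, so the value of either alone is uncertain.

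**Figure D2:**
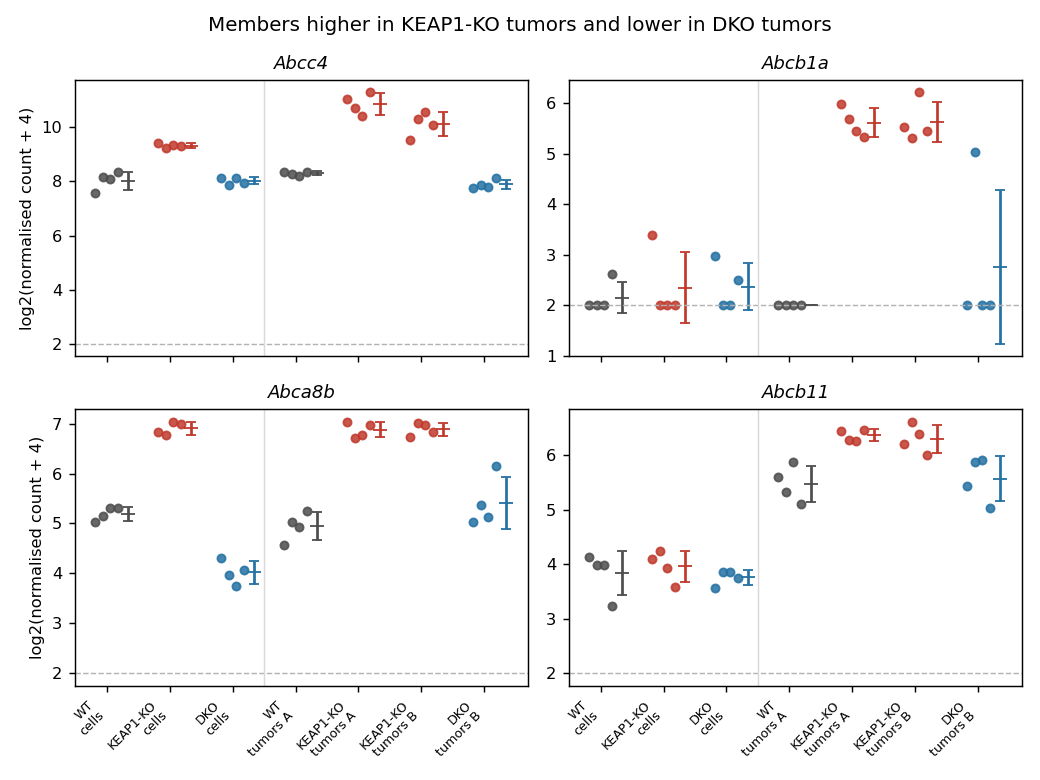
Values of Abcc4, Abcb1a, Abca8b and Abcb11 in the 28 libraries, on the log2(normalised count + 4) scale, by group. Points are libraries, the bar beside them is the mean and SD of 4, and the dashed line at 2 is no read. The 8 KEAP1-KO tumors stand above the WT and DKO tumors in each panel, and Abcb1a is near the dashed line in culture.

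For 18 of the 38 genes, 67 further rows without a symbol are transcripts of the same gene by GENCODE vM21. Because several rows with a symbol are minor transcripts, all rows of a gene were also added up, a step chosen after seeing the data. Abcc1, which encodes MRP1, an exporter of glutathione conjugates, changed its picture most. Its row with the symbol, a transcript marked for nonsense-mediated decay, was at 2.0 or between 4.99 and 7.0 from library to library in the tumors, and its difference of 1.06 (SE 1.55) in Experiment A was not called.

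The sum of 11 Abcc1 rows was 9.49, 9.44, 9.60 and 9.90 in WT tumors and 10.56, 10.67, 10.49 and 10.67 in the Experiment A KEAP1-KO tumors. It was 10.27, 10.40, 10.52 and 10.41 in the Experiment B KEAP1-KO tumors and 8.82, 8.87, 8.78 and 9.02 in the DKO tumors. The 8 KEAP1-KO tumors were all above the WT tumors, and the DKO tumors were all below them. The summed difference was 0.99 (SE 0.09, adjusted p = 2.5e-06) for KEAP1 loss and -1.52 (SE 0.09, adjusted p = 3.5e-08) for NRF2 loss in tumors, and 0.74 (SE 0.12, adjusted p = 0.00084) and -1.22 (SE 0.12, adjusted p = 2.5e-05) in cells. DKO was below WT in tumors by -0.74 (adjusted p = 8.2e-05) and in cells by -0.47 (adjusted p = 0.0156). Of the 10 unnamed Abcc1 rows 8 could be tested, 5 were called higher in KEAP1-KO than WT tumors and 4 lower in DKO than KEAP1-KO tumors.

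Abcb1b, the other P-glycoprotein gene, and Abcb6, a porphyrin transporter, were called in the sums in some of these comparisons. Abcb1b over 7 rows differed by 1.29 (SE 0.23, adjusted p = 0.00095) for KEAP1 loss in tumors and by -0.94 (SE 0.23, adjusted p = 0.0145) for NRF2 loss, and by 0.56 (SE 0.15, adjusted p = 0.0208) for KEAP1 loss in cells. Abcb6 over 4 rows differed by 0.67 (SE 0.21, adjusted p = 0.043) for KEAP1 loss in tumors, and by -1.26 (SE 0.21, adjusted p = 0.00084) and -0.99 (SE 0.25, adjusted p = 0.0261) for NRF2 loss in tumors and cells. Not called in the sums were Abcb1b for NRF2 loss in cells (-0.24, adjusted p = 0.435), Abcb6 for KEAP1 loss in cells (0.56, adjusted p = 0.175), and both between DKO and WT tumors (0.37, adjusted p = 0.36, and -0.58, adjusted p = 0.0888). Their own rows were not called in any comparison. With sums, of 34 members tested 16 were called in Experiment A (10 higher and 6 lower) and 11 in Experiment B (3 higher and 8 lower), beside 4486 and 3037 of 34217 rows in all.

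**Figure D3:**
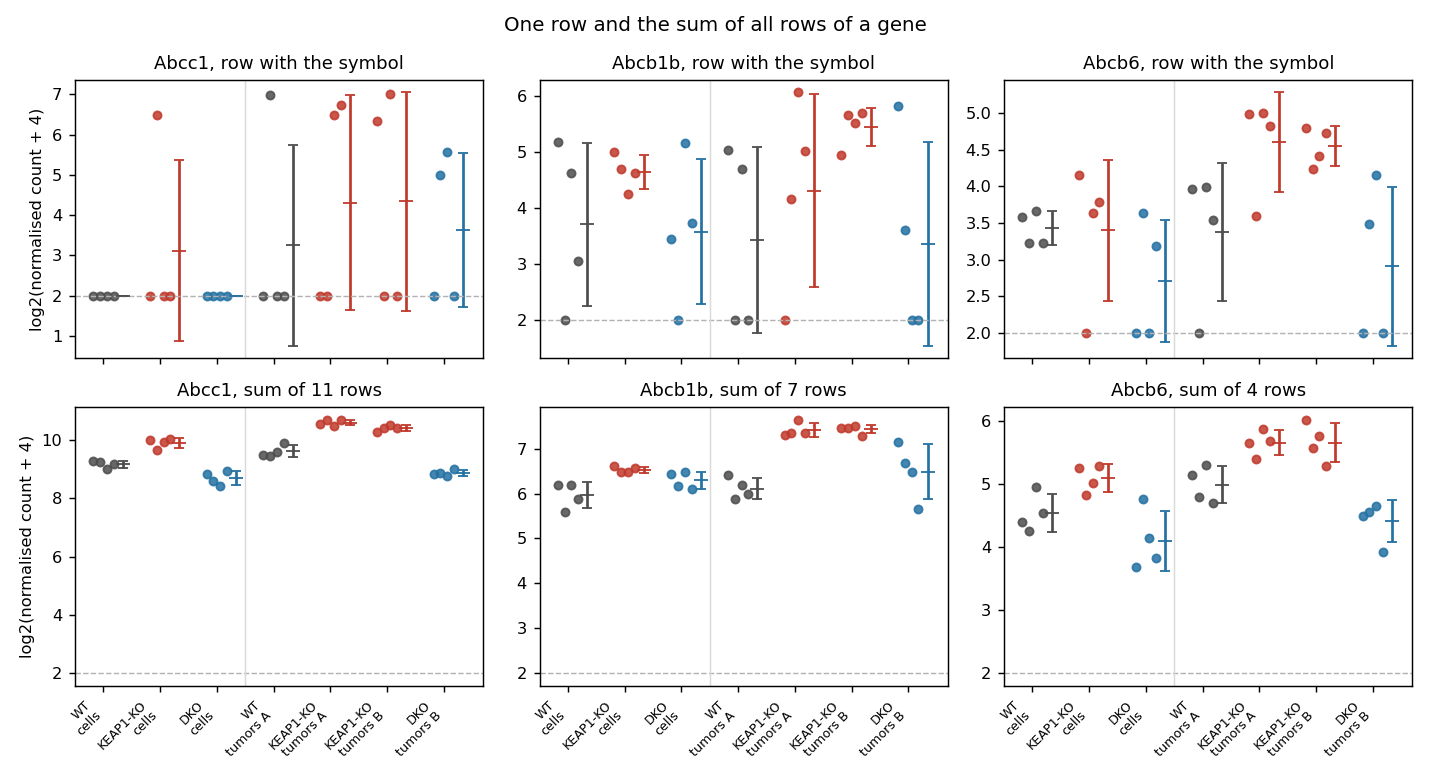
Abcc1, Abcb1b and Abcb6 by group, for the row that carries the symbol (top) and for the sum of all rows of the gene (bottom), on the log2(normalised count + 4) scale. Points are libraries, bars the mean and SD of 4. The Abcc1 row jumps between 2.0 and 7.0 within groups, while its sum stays between 8.41 and 10.67 and separates KEAP1-KO from DKO libraries.

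MRPs act downstream of enzymes that conjugate toxins, and these moved together with Abcc4. Of 14 tested conjugating enzymes in a list of glutathione, glucuronide and sulfate transferases, 10 were higher and 1 lower in KEAP1-KO than WT tumors, and 1 was higher and 11 lower in DKO than KEAP1-KO tumors. In cells the counts were 12 higher and 1 lower, then 1 higher and 12 lower. Of 13 established NRF2 targets 12 rose and 1 fell with KEAP1 loss in tumors, and 12 fell with NRF2 loss. The glutathione transferase Gsta4 differed by 4.75 and -4.78 in the tumor comparisons. A list of other export and import carriers had none higher and 1 lower of 8 in Experiment A, and none called of 8 in Experiment B by limma. In cells 3 of 7 tested carriers were higher and none lower with KEAP1 loss, and none was called with NRF2 loss. Between DKO and WT cells 2 of 7 were higher and none lower.

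Abcc3 and Abcg3 were the members of the exporter class that were lower in KEAP1-KO tumors. Abcc3 (a row of a processed transcript) encodes MRP3, which exports glucuronides and bile salts. It stood at 6.34, 6.36, 6.55 and 6.01 in WT tumors and at 5.09, 4.56, 4.42 and 5.42 in the Experiment A KEAP1-KO tumors, a difference of -1.44 (SE 0.21, adjusted p = 0.00015). In Experiment B the values were 5.67, 5.66, 5.38 and 5.44 in KEAP1-KO and 5.90, 6.27, 6.14 and 5.69 in DKO tumors, which did not overlap but differed by 0.46 (SE 0.21, adjusted p = 0.211). In culture Abcc3 was at 0 reads in 11 of 12 libraries.

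Abcg3, a rodent relative of the drug exporter Abcg2, stood at 7.56, 7.62, 7.35 and 6.76 in WT tumors and at 5.60, 5.62, 4.71 and 5.85 in the Experiment A KEAP1-KO tumors, a difference of -1.88 (SE 0.23, adjusted p = 3.8e-05). The Experiment B values were 6.54, 6.34, 6.19 and 6.47 in KEAP1-KO and 6.54, 6.19, 6.03 and 5.91 in DKO tumors, which overlapped. In culture Abcg3 was at 0 reads in 11 of 12 libraries. Abcg2 itself (a row of a processed transcript) was at 4.35 ± 0.55 in WT tumors, 4.06 ± 0.27 and 3.95 ± 0.25 in KEAP1-KO tumors and 3.90 ± 0.67 in DKO tumors (mean ± SD, n = 4), and differed by -0.29 (95% interval -0.98 to 0.40) in Experiment A.

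Leukocyte markers moved in the same comparison. All 10 of a leukocyte list and 10 of 12 macrophage markers were lower in KEAP1-KO than WT tumors of Experiment A, and 9 of 10 and 5 of 12 were higher in DKO than Experiment B KEAP1-KO tumors. The summed leukocyte level was 4530 to 5870 normalised counts in WT tumors, 1030 to 1270 and 1800 to 2230 in the KEAP1-KO tumors of A and B, and 3320 to 5010 in DKO tumors. In cultured cells it was 8.38 to 122, with Tyrobp at 0 in every library. The summed macrophage level was 6010 to 8390, 2880 to 3410, 4640 to 5180 and 5610 to 7260 in the same tumor groups, and 192 to 244 in culture, with Adgre1 and Marco at 0 there. Of 9 fibroblast markers 2 were lower and none higher in Experiment A, and 4 were higher and none lower in Experiment B. Their summed level was 4520 to 11800, 1760 to 4670, 2610 to 3430 and 10600 to 14900 in the same tumor groups, and 296 to 745 in culture. Of 6 tested neutrophil markers 5 were lower in Experiment A and 2 higher in Experiment B. The part of all these cells in the tumor values of Abcc3, Abcg3, Abca1, Abca7 and Abca9 was not tested. Fewer cells of a type and less RNA per cell cannot be told apart in bulk tumors.

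Abca8b led the lipid transporters. It belongs to a cluster of related Abca genes of lipid transport. Its values were 4.57, 5.03, 4.93 and 5.25 in WT tumors, 7.04, 6.72, 6.78 and 6.98 in Experiment A KEAP1-KO tumors, 6.74, 7.01, 6.97 and 6.83 in those of Experiment B and 5.02, 5.36, 5.12 and 6.16 in DKO tumors. All 8 KEAP1-KO tumors stood above the WT and DKO tumors. The difference was 1.94 (SE 0.21, adjusted p = 9.7e-06) for KEAP1 loss and -1.47 (SE 0.21, adjusted p = 0.00025) for NRF2 loss. In culture it stood at 5.02, 5.14, 5.31 and 5.30 in WT, 6.84, 6.77, 7.04 and 7.0 in KEAP1-KO and 4.30, 3.96, 3.75 and 4.07 in DKO cells. The 3 cell groups did not overlap, with differences of 1.72 (SE 0.14, adjusted p = 4e-06) and -2.89 (SE 0.14, adjusted p = 3.9e-08), and DKO cells were below WT cells by -1.18 (SE 0.14, adjusted p = 9e-05). Its close relative Abca8a was at 0 reads in all 12 cell libraries and at most 3.55 in tumors, under the filter.

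Abcb11, the bile salt export pump, followed the same direction at a lower level and in tumors. It stood at 5.61, 5.33, 5.88 and 5.11 in WT and 6.45, 6.29, 6.26 and 6.47 in Experiment A KEAP1-KO tumors, a difference of 0.88 (SE 0.21, adjusted p = 0.00851). In Experiment B it stood at 6.21, 6.62, 6.39 and 6.0 in KEAP1-KO and 5.44, 5.87, 5.92 and 5.04 in DKO tumors, a difference of -0.73 (SE 0.21, adjusted p = 0.0356). That second call was lost when KEAP1-KO replicate 1, 2 or 3 (-0.77, -0.63 and -0.70) or DKO replicate 1 or 4 (-0.69 and -0.56) was left out. In culture the group means were 3.84, 3.96 and 3.76 and no cell comparison was called.

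Abca1, Abca9 and Abca7 were lower in KEAP1-KO tumors. Abca1 effluxes cholesterol and phospholipid to apolipoprotein A-I and is known from macrophages. It stood at 9.34, 9.23, 9.20 and 9.44 in WT and 8.31, 8.30, 8.02 and 8.51 in Experiment A KEAP1-KO tumors, a difference of -1.01 (SE 0.13, adjusted p = 6.5e-05). In Experiment B it stood at 8.30, 8.68, 8.74 and 8.81 and, in DKO tumors, at 8.98, 9.36, 8.90 and 8.84, which did not overlap and differed by 0.39 (SE 0.13, adjusted p = 0.0908). Cultured cells had at most 3.78 and could not be tested among genotypes.

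Abca9 (a row of a processed transcript), of the same gene cluster, went opposite ways in tumors and cells. It stood at 6.47, 6.06, 6.13 and 5.71 in WT and 4.71, 4.88, 4.21 and 4.55 in Experiment A KEAP1-KO tumors, a difference of -1.50 (SE 0.19, adjusted p = 5.3e-05), and at 5.42, 5.19, 5.51 and 5.37 in KEAP1-KO and 6.10, 5.59, 6.17 and 5.62 in DKO tumors of Experiment B (0.50, SE 0.19, adjusted p = 0.141). In culture it was close to the floor in WT cells, at 2.65, 3.06, 2.86 and 3.23, and higher in KEAP1-KO cells, at 4.09, 4.02, 4.18 and 4.39 (1.22, SE 0.20, adjusted p = 0.00114). DKO cells, at 3.78, 3.75, 4.05 and 3.83, were also above WT cells (0.91, SE 0.20, adjusted p = 0.00789).

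Abca7, a phospholipid transporter of phagocytes, had small differences. It stood at 9.69, 9.77, 9.79 and 9.62 in WT and 9.54, 9.44, 9.53 and 9.54 in Experiment A KEAP1-KO tumors, a difference of -0.21 (SE 0.06, adjusted p = 0.0406). This call was lost under 12 of 16 alternatives, with adjusted p up to 0.115. They included leaving out any library of that comparison but WT replicate 4, which gave -0.18 to -0.22. In Experiment B it stood at 9.51, 9.52, 9.61 and 9.54 in KEAP1-KO and 9.52, 9.73, 9.74 and 9.79 in DKO tumors. In culture it stood at 8.34, 8.62, 8.50 and 8.60 in WT, 8.78, 8.71, 8.74 and 8.73 in KEAP1-KO and 8.47, 8.35, 8.23 and 8.43 in DKO cells, with DKO below KEAP1-KO cells by -0.37 (SE 0.07, adjusted p = 0.00613).

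Abcg4 (a row of a transcript with a retained intron), a sterol transporter known from brain, was low throughout. It stood at 3.58, 3.78, 3.39 and 3.38 in WT, 4.31, 4.24, 4.10 and 4.57 in KEAP1-KO and 3.98, 4.30, 3.96 and 4.51 in DKO cells. KEAP1-KO was above WT cells by 0.77 (SE 0.21, adjusted p = 0.023), a call lost without WT replicate 3 (0.72), WT replicate 4 (0.72) or KEAP1-KO replicate 4 (0.68). In tumors it stood at 2.0, 3.54, 3.10 and 2.71 in WT, 3.56, 3.85, 4.13 and 3.15 and 3.90, 4.01, 4.26 and 3.70 in KEAP1-KO, and 4.10, 3.73, 4.21 and 4.51 in DKO tumors. DKO was above WT tumors by 1.30 (SE 0.31, adjusted p = 0.0133), while the tumor comparisons with KEAP1-KO were not called.

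Abcd2, a peroxisomal importer of acyl-CoA, was lowest in DKO libraries both in tumors and in culture. It stood at 6.33, 6.49, 6.68 and 6.46 in WT, 6.59, 6.29, 5.81 and 6.07 and 6.06, 6.09, 5.93 and 6.02 in KEAP1-KO (A and B), and 5.20, 5.08, 4.94 and 5.12 in DKO tumors. The DKO tumors were below the KEAP1-KO tumors by -0.94 (SE 0.15, adjusted p = 0.00054) and below WT tumors by -1.40 (SE 0.15, adjusted p = 1.3e-05), and Experiment A gave -0.30 (SE 0.15, adjusted p = 0.222). In culture it stood at 6.81, 6.46, 6.59 and 6.49 in WT, 5.88, 6.05, 5.99 and 5.73 in KEAP1-KO and 3.98, 4.14, 3.50 and 3.32 in DKO cells. The step with NRF2 loss was -2.18 (SE 0.18, adjusted p = 6.4e-06). The step with KEAP1 loss was -0.68 (SE 0.18, adjusted p = 0.025) and was lost with a pseudocount of 0.4 or without WT replicate 1 or 3 (-0.60 and -0.68) or KEAP1-KO replicate 1 or 4 (-0.67 and -0.62). Of 11 other tested peroxisomal genes 2 were higher in Experiment A, and 1 was higher and 2 lower in Experiment B. Cat, the peroxisomal catalase, differed by 2.86 and -3.05 in those comparisons.

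Abce1 and Abcf2, soluble ATPases that act in translation, were higher in both KEAP1-KO comparisons by small amounts. The protein of Abce1 recycles ribosomes, and its row is a transcript with a retained intron. Abce1 stood at 11.57, 11.67, 11.76 and 11.73 in WT and 11.98, 12.03, 11.98 and 12 in Experiment A KEAP1-KO tumors (0.32, SE 0.07, adjusted p = 0.00744). In Experiment B it stood at 11.94, 12.17, 12.02 and 12.05 in KEAP1-KO and 11.83, 11.95, 11.87 and 11.58 in DKO tumors (-0.24, SE 0.07, adjusted p = 0.051). In culture it stood at 13.05, 12.86, 12.80 and 12.82 in WT, 13.16, 13.39, 13.36 and 13.38 in KEAP1-KO and 13.44, 13.45, 13.38 and 13.33 in DKO cells, so that both edited lines were above WT, by 0.44 (SE 0.06, adjusted p = 0.00035) and 0.52 (SE 0.06, adjusted p = 8.4e-05).

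Abcf2 rose with each edit in culture. It stood at 11.38, 11.23, 11.27 and 11.21 in WT, 11.57, 11.66, 11.68 and 11.66 in KEAP1-KO and 11.90, 11.93, 11.90 and 11.93 in DKO cells, with steps of 0.37 (SE 0.04, adjusted p = 5.3e-05) and 0.27 (SE 0.04, adjusted p = 0.00092). In tumors it stood at 10.21, 10.15, 10.18 and 10.20 in WT, 10.33, 10.31, 10.48 and 10.43 and 10.27, 10.46, 10.34 and 10.37 in KEAP1-KO, and 10.19, 10.34, 10.29 and 10.16 in DKO tumors. The Experiment A difference of 0.20 (SE 0.06, adjusted p = 0.0308) was lost without WT replicate 1, 2 or 3 (0.21, 0.19 and 0.20) or KEAP1-KO replicate 3 or 4 (0.17 and 0.19). The called differences of Abce1 and Abcf2 kept their direction under quantile normalisation and median centring.

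**Figure D4:**
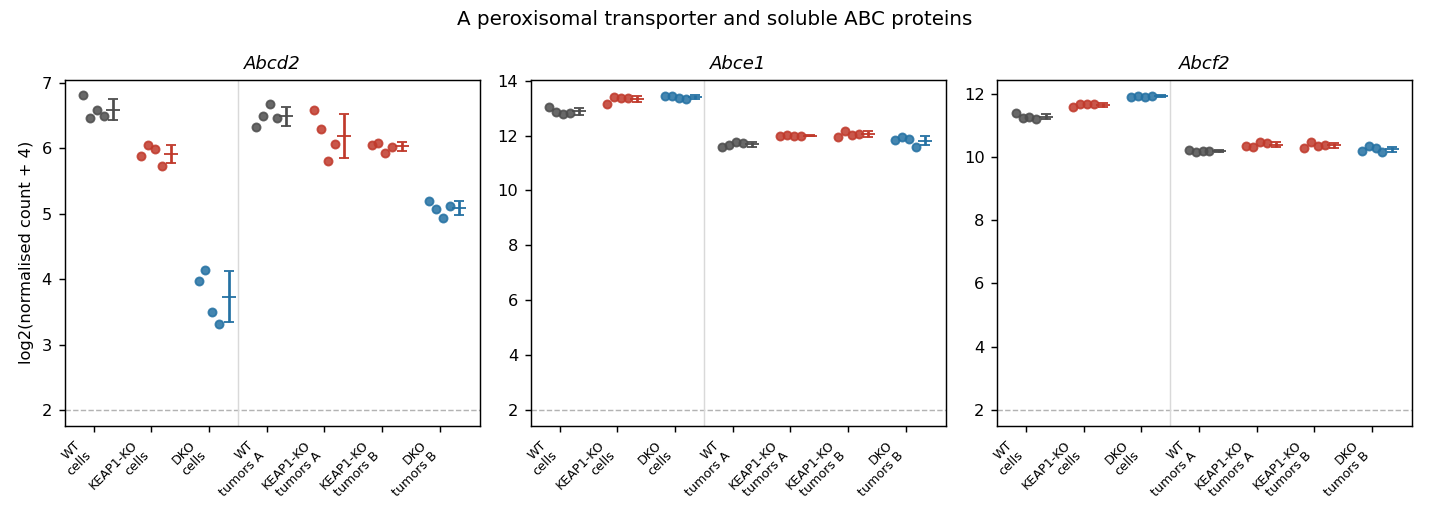
Abcd2, Abce1 and Abcf2 by group, on the log2(normalised count + 4) scale, with points for libraries and bars for the mean and SD of 4. Abcd2 is lowest in DKO in both settings, and Abce1 and Abcf2 are higher in culture than in tumors.

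Abcc9 encodes SUR2, the regulatory subunit of a potassium channel, and is a marker of pericytes. It stood at 6.38, 6.20, 6.50 and 6.47 in WT and 6.90, 7.07, 6.65 and 7.32 in Experiment A KEAP1-KO tumors (0.60, SE 0.15, adjusted p = 0.0162), a call lost without WT replicate 2 (0.54) or KEAP1-KO replicate 4 (0.49). In Experiment B it stood at 6.88, 6.93, 7.22 and 7.26 in KEAP1-KO and 6.57, 6.53, 6.50 and 7.02 in DKO tumors (-0.42, SE 0.15, adjusted p = 0.121). Cultured cells had group means of 2.74, 2.82 and 2.57. Of 7 tested pericyte markers 1 was lower and none higher in KEAP1-KO than WT tumors by limma, and their summed level was 972 to 1280 in WT, 682 to 750 and 876 to 1040 in KEAP1-KO and 687 to 859 normalised counts in DKO tumors. In culture it was 47.9 to 131, with Rgs5, Kcnj8 and Higd1b at 0. The part of pericytes in the Abcc9 values was not tested.

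The KEAP1-KO tumors of both experiments share a genotype, but whether they came from the same line is not stated. None of the 32 tested members was called between them by limma, beside 0.164% of all rows, and 6 had an unadjusted p under 0.05. The differences ran from -0.91 (Abcc5) to 1.14 (Abcb1b), and the smallest adjusted p was 0.184. In the same comparison 4 of 10 leukocyte and 5 of 12 macrophage markers were higher in Experiment B. Between DKO and WT tumors, 3 of 32 members were called, beside 10.6% of all rows (4.57% higher and 5.99% lower). They were Abcd2 (-1.40), Abcg3 (-1.15, SE 0.23, adjusted p = 0.0042) and Abcg4 (1.30). Quantile normalisation turned this split from 1 higher and 2 lower to 4 higher and 2 lower, and in Experiment B from 1 higher and 5 lower to 3 higher and 5 lower. Over all rows it turned the split from 1565 higher and 2051 lower to 2004 and 1776 between DKO and WT tumors, and from 1445 and 1586 to 1570 and 1458 in Experiment B.

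Between DKO and WT cells 8 of 23 members were called, 5 higher and 3 lower, beside 17.7% of all rows (8.46% higher and 9.2% lower). Abcd2, by -2.85 (SE 0.18, adjusted p = 3.8e-07), and Abca8b were among the lower. Higher were Abca9, Abcf2 by 0.64 (SE 0.04, adjusted p = 4.1e-07), Abce1, Abcg4 by 0.65 (SE 0.21, adjusted p = 0.0463) and Abcb10, a transporter of the inner mitochondrial membrane, by 0.31 (SE 0.07, adjusted p = 0.00701). The means of Abcb10 were 8.63, 8.74 and 8.94 in WT, KEAP1-KO and DKO cells. The Abcg4 call was lost without WT replicate 1, 3 or 4 or DKO replicate 1, 2 or 4 (0.54 to 0.72).

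Tumors were then set against the cultured cells of the same genotype. The median row was 0.16 to 0.23 higher in tumors. The differences and calls below were not corrected for that shift, except where median centring or quantile normalisation is named. Of 33 tested members, 16 were called in WT (13 higher in tumors, 3 lower), 16 in KEAP1-KO of Experiment A (13 and 3), 14 in KEAP1-KO of Experiment B (11 and 3) and 19 in DKO (15 and 4). All rows gave 38.8% called in WT (24.7% higher and 14.1% lower), 39.6% in KEAP1-KO of A (23.9% higher and 15.8% lower), 38.8% in KEAP1-KO of B (23.9% higher and 14.9% lower) and 43.5% in DKO (27.6% higher and 15.9% lower). With median centring the WT split became 9 higher and 7 lower, while over all rows it went from 9197 higher and 5253 lower to 4726 and 8677.

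Abca1 was the member with the largest difference between tumor and culture, 6.08 to 6.59 over the 4 comparisons, each with an adjusted p of at most 5.5e-17. Abcc3 differed by 2.87 to 4.31, Abcg3 by 3.44 to 5.24, Abcc9 by 3.65 to 4.25, Abcg2 by 1.75 to 2.35 and Abcb11 by 1.64 to 2.40, and all were called in all 4. Abca7 was called in all 4 as well, by 0.77 to 1.32. Abca9 was called in WT (3.14), KEAP1-KO of Experiment B (1.20) and DKO (2.02). Abcc4 (1.53 and 0.80) and Abcb1a (3.26 and 3.27) were higher in both sets of KEAP1-KO tumors, and Abca8b (1.40) and Abcd2 (1.35) in DKO tumors. Against the floor of 3 reads in the KEAP1-KO cells, Abcg3 was at least 15.1-fold and 29.3-fold higher in the KEAP1-KO tumors of A and B, and Abcc3 at least 9.70-fold and 15.6-fold higher. In WT, where both were at 0 reads in culture, Abcc3 was at least 23.2-fold and Abcg2 at least 5.32-fold higher in tumors. In culture the summed markers of leukocytes, macrophages, pericytes and fibroblasts were at 8.38 to 122, 192 to 244, 47.9 to 131 and 296 to 745 normalised counts. The part of these cells in the differences was not tested.

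Abcd4 (a row of a transcript with a retained intron), a lysosomal cobalamin transporter, was higher in tumors in all 4 comparisons (means of 5.06, 4.91, 5.02 and 5.43 in tumors and 3.85, 3.82 and 3.38 in WT, KEAP1-KO and DKO cells). Abcb9 (a row of a transcript marked for nonsense-mediated decay), a lysosomal peptide transporter, was called higher in 3 of the 4 comparisons, with tumor means of 5.80, 5.50, 5.15 and 5.15 and cell means of 4.65, 4.66 and 4.41. Its DKO call (0.73) was lost in 6 of 15 alternatives, quantile normalisation (0.41), median centring (0.37), a fit of the groups compared alone (0.73), and without DKO cell replicate 2 (0.51) or DKO tumor replicate 2 (0.69) or 4 (0.63). Its KEAP1-KO call in Experiment A (0.84) was lost under quantile normalisation and median centring (0.59 and 0.60). Abce1 was lower in tumors by -1.20 to -1.59 and Abcf2 by -1.09 to -1.67. The sum of 8 proliferation genes was 15100 to 23000 normalised counts in culture and 4090 to 8120 in tumors, and the part of cell growth in the Abce1 and Abcf2 values was not tested. Abcb10 was lower in tumors by -0.26 to -0.53 where called, but 2 of its 3 calls turned positive and uncalled with quantile normalisation.

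**Figure D5:**
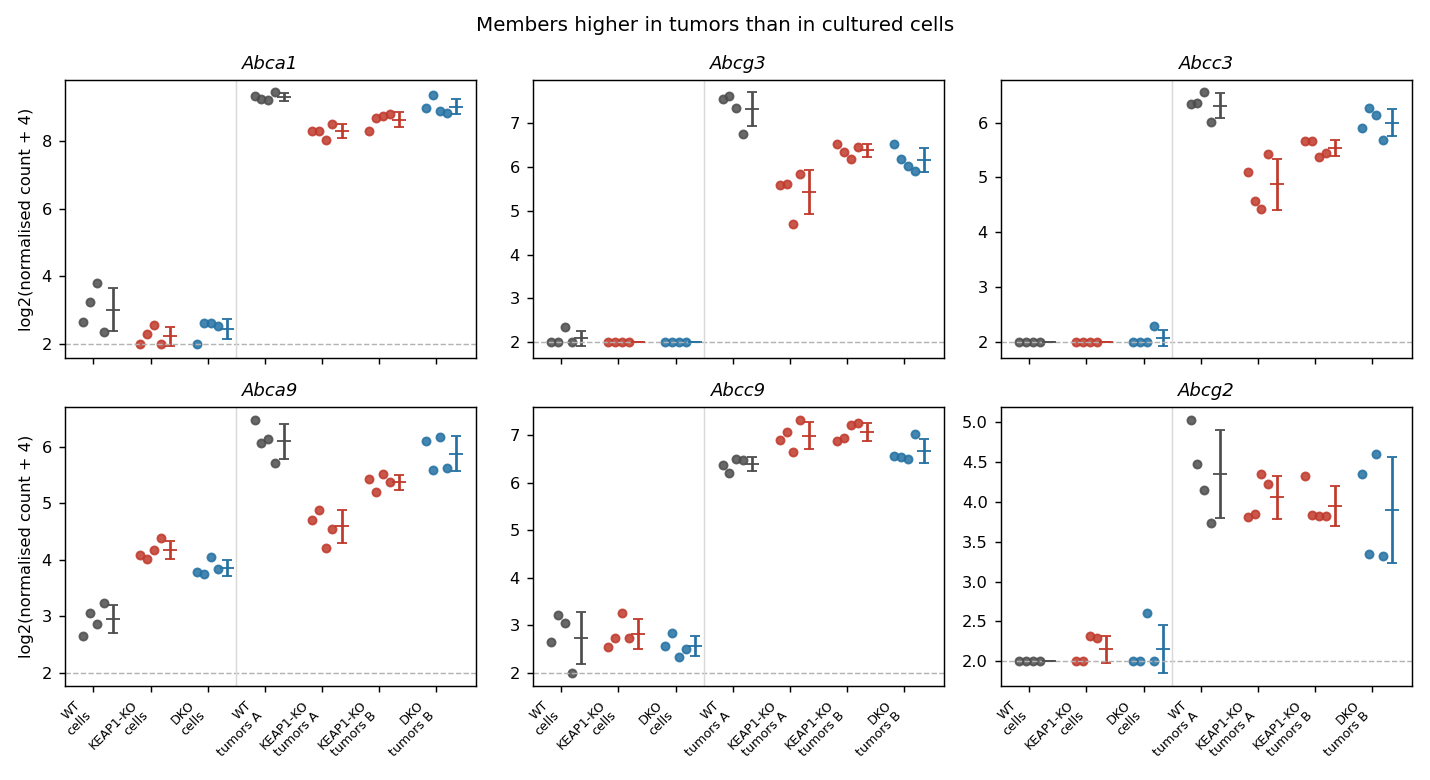
Abca1, Abcg3, Abcc3, Abca9, Abcc9 and Abcg2 by group, on the log2(normalised count + 4) scale, with points for libraries and bars for the mean and SD of 4. Cultured cells lie at 4.39 or below, close to the dashed line of no read, and the WT tumors stand above the Experiment A KEAP1-KO tumors for Abca1, Abcg3, Abcc3 and Abca9.

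Abcb9, Abcd4 and Abcg2, given above, were called in tumor-to-culture comparisons alone. So were Abca5 (WT, 0.75), Abcb4, the phosphatidylcholine floppase of bile (WT 0.82, KEAP1-KO of A 0.94, DKO 1.24, there at least 1.93-fold against cells at 0 reads), Abcb8 (KEAP1-KO of A, 1.10), Abcf1 (WT 1.38, DKO 1.25) and Abcg1, which effluxes cholesterol to high-density lipoprotein (DKO, -2.17). The Abcg1 group means were 4.81 in DKO cells and 2.64 in DKO tumors. The call of Abca5 was lost in 10 of 13 alternatives, among them the omission of any 1 WT tumor (0.59 to 0.82) and median centring (0.36), that of Abcb8 in 9 of 14, and those of Abcf1 in 11 of 14 in DKO and 6 of 14 in WT. The Abcb4 call was lost in 3 of 13 alternatives in WT and in none of 13 in the other comparisons, and the Abcg1 call in 5 of 14. With rows summed, Abcg1 (-0.62) and Abcf1 (0.53) were no longer called in DKO. Abcg4 was lower in WT tumors than in WT cells (-0.70), a call lost in 5 of 14 alternatives.

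Whether the effect of an edit differed between tumors and culture was tested as an interaction, with the KEAP1 effect of Experiment A and the NRF2 effect of Experiment B. Tumor libraries hold host RNA as well, so a changed share of host cells and a changed effect of an edit cannot be told apart. In this test 9 of 10 leukocyte and 9 of 12 macrophage markers were negative for KEAP1 loss. For NRF2 loss 9 of 10 and 4 of 12 were positive. For KEAP1 loss 6 of 33 members were called, 2 positive and 4 negative, beside 5.38% of all rows (1.5% and 3.88%). Abcc4 (1.27, SE 0.26, adjusted p = 0.00212) rose more in tumors. Abca9 (-2.73, SE 0.26, adjusted p = 1e-07) and Abca7 (-0.43) had a lower difference in tumors than in culture. Abcb1a (3.41, SE 0.67, adjusted p = 0.00155), Abcg3 (-1.79) and Abcc3 (-1.44) were called too, but had at least 5 normalised counts in at most 1 of 12 cell libraries, so no effect in culture was measurable and their values, with that of Abcb1a for NRF2 loss, restate the tumor difference. For NRF2 loss 7 of 33 were called, 4 positive and 3 negative, beside 3.67% of all rows (2.12% and 1.55%). Abcd2 (1.24, SE 0.23, adjusted p = 0.00137) and Abca8b (1.42, SE 0.26, adjusted p = 0.00131) went down less in tumors. Abcb1a (-2.88), Abcc4 (-0.93), Abcf2 (-0.39) and Abca7 (0.52) were called as well. The Abcc4 value was lost under 13 of 16 single-library omissions (-0.79 to -0.96, adjusted p up to 0.0983), those of any library but DKO cell replicate 2, KEAP1-KO tumor replicate 1 and DKO tumor replicate 4. With a pseudocount of 0.4 the calls of Abcb1a for NRF2 loss (-5.71, adjusted p = 0.0514) and of Abcc3 (adjusted p = 0.0655) and Abcg3 (adjusted p = 0.103) for KEAP1 loss were lost, and with median centring that of Abca7 for KEAP1 loss (-0.27, adjusted p = 0.0929).

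Of the remaining members, Abca13, Abca4, Abca6, Abca8a and Abcf3 were tested in no comparison, and their highest value in any library was 5.21. Abca2, Abca3, Abcb1b, Abcb6, Abcc1, Abcc10, Abcc5 and Abcd3 were among those tested and not called anywhere on their own row, with group means from 2.0 to 5.45. Abcf3, a soluble ATPase, showed a pattern in the sum of its 7 rows, which fell to 4.52, 5.30, 3.82 and 5.37 in the Experiment B KEAP1-KO tumors and stood at 6.63, 7.02, 5.94 and 6.30 in DKO tumors (1.72, SE 0.33, adjusted p = 0.00282). The Experiment A KEAP1-KO tumors had 6.19, 5.84, 6.48 and 5.36. Of the ABC transporters of antigen processing, which the rule does not take in, Tap2 differed by -0.62 (adjusted p = 0.0011) in Experiment A and 0.48 (adjusted p = 0.0113) in Experiment B, and Tap1 by -1.22 (adjusted p = 0.0698) and 1.42 (adjusted p = 0.0463).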

How the data were processed

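Ribosomal RNA-depleted, strand-specific libraries of cultured 3LL cells and of tumors were sequenced, and transcripts were quantified by the authors with Salmon, as the labels and the study's methods state. The deposited table holds log2 values, equal to log2(normalised count + 4), in which each library's low values were whole reads divided by 1 factor. The study's methods name TPM, which these values are not. The table has 43143 rows, 9122 of genes and 34021 of transcripts, of which 96.955% are in GENCODE vM21, and 18509 carry a symbol. Reads of close copies were divided in the authors' quantification.

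Groups were compared on the log2 values by limma (version 3.58.1, R version 4.3.3, moderated fit with a mean trend), using 3 fits of 16 tumor, 12 cell and all 28 libraries, over rows with at least 5 normalised counts in at least 4 libraries, with Benjamini-Hochberg adjustment over all rows tested and a threshold of 0.05. The fit was tested on simulated data. By the study's design the 4 tumors of a group grew in separate mice, each bearing 1 tumor of each genotype, but the labels do not say which tumors shared a mouse. Nothing says that the 4 cell libraries of a group came from separate cultures, so their p-values measure a spread that may be technical. Library depth limits precision: at 4222376 to 7524281 reads recovered over the deposited rows, 3 reads were taken as the floor for folds against groups at 0, and this covers counting error only.

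The genes and lists were chosen with earlier results of these data known. Every library's value is given for members called in KEAP1-KO against WT or DKO against KEAP1-KO, in tumors or cells, members called elsewhere are given by group means or differences, and the rest by counts and ranges. The values of some members are not reported here, although they stay in the counts. Keap1, Nfe2l2 and Nqo1 were named as checks. Other alternatives were a pseudocount of 0.4, no filter, a filter on a mean of 25 normalised counts, quantile normalisation, median centring, a replicate block, single-library omission, fits of only the groups compared and summing of rows. Same-numbered libraries deviated together weakly at most (correlations of -0.0344 to 0.0403 over 20 pairs, none over 0.1). Each WT cell library nevertheless correlated most with the DKO cell library of the same number (0.0236 to 0.0383). Replicate 3 did so as well between WT and KEAP1-KO cells and between KEAP1-KO and DKO cells. ABC genes Abca12, Abca14, Abca15, Abca16, Abca17, Abcb5, Abcc2, Abcc6, Abcc8, Abcc12, Abcg5 and Abcg8 were not analysed here.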

Additional observations from a re-analysis of the deposited data

Results flagged for a closer look

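A single library stood far from the other 3 of its group in 7 of 105 groups checked over 15 members, where chance gives about 1 in 20. The most distant were Abcb1a in DKO tumor replicate 2 (5.04, the other 3 at 2.0) and in KEAP1-KO cell replicate 1 (3.39, the other 3 at 2.0). The others were Abca1 in a DKO cell library (2.0), Abca7 in a KEAP1-KO tumor of Experiment A (9.44), Abcb11 in a WT cell library (3.23), Abcc9 in a DKO tumor (7.02) and Abce1 in a KEAP1-KO cell library (13.16).

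The effect of an edit was called as different between tumors and culture, by limma's interaction test, for the members that follow. In tumors a changed share of host cells and a changed effect of the edit cannot be told apart. For KEAP1 loss the difference of effects, tumor minus culture, was 3.41 for Abcb1a, 1.27 for Abcc4, -0.43 for Abca7, -1.44 for Abcc3, -1.79 for Abcg3 and -2.73 for Abca9. For NRF2 loss it was 1.42 for Abca8b, 1.24 for Abcd2, 0.52 for Abca7, -0.39 for Abcf2, -0.93 for Abcc4 and -2.88 for Abcb1a. Abcc3, Abcg3 and Abcb1a had at least 5 normalised counts in at most 1 of 12 cell libraries, so no effect in culture was measurable for them and their values restate the tumor difference.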

How the results depend on the processing

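Adding up the rows of each gene, chosen after seeing the data, moved the members called in DKO against KEAP1-KO tumors from 6 to 11 and in KEAP1-KO tumors of Experiment B against cells from 14 to 24. Quantile normalisation moved DKO against WT tumors from 3 to 6. Quantile normalisation also turned Abcb10 to 0.19 in DKO and 0.08 in KEAP1-KO (Experiment B) tumors against cells, from -0.27 and -0.26. The cause was not tested. A filter on the mean moved WT tumors against cells from 16 calls to 10, with 15 members tested in place of 33, beside 9365 of 14454 rows in all. Leaving out 1 library gave 10 to 13 calls for KEAP1 loss and 5 to 7 for NRF2 loss in tumors, 0 to 0 between the KEAP1-KO tumors, 3 to 4 for DKO against WT tumors, and 6 to 9, 6 to 7 and 7 to 10 in the cell comparisons. It gave 13 to 15, 15 to 17, 13 to 14 and 16 to 20 for tumors against cells and 6 to 7 for each interaction. Of 1956 values of single members under alternatives, 1825 kept direction and call, 129 lost the call and 2 changed sign. With the replicate number as a block the calls were 12 and 7 in tumors, 8, 6 and 7 in cells, and 6 and 7 for the interactions, and only 2 of 54 single calls were lost. The other comparisons share no block across experiments or between tumors and cells.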
